A study of Canis lupus familiaris with 6 samples.

Results

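Complex I, the NADH:ubiquinone oxidoreductase of the mitochondrial inner membrane, was followed through the transcripts of its nuclear genes in canine melanoma cells under hypoxia and normoxia. The genes were those whose symbol is NDUF followed by A, B, C, S, V, AF or AB and a number, with NDUFA4 left out, since its product is a subunit of cytochrome oxidase. The rule found 36 of 29822 gene rows, of which 28 encode subunits and 8 encode NDUFAF assembly factors. A further 9 subunit symbols (NDUFA1, NDUFA3, NDUFA5, NDUFA7, NDUFA11, NDUFAB1, NDUFB1, NDUFC1 and NDUFC2) had no row by that name and were not analysed here. All 36 genes passed the filter on low counts and were tested, with 374 to 5232 reads per gene and library.

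RNA was sequenced from CMM10, a cell line from a canine malignant melanoma, in 3 libraries of cells kept under hypoxia and 3 of cells kept under normoxia. The labels state neither an oxygen level nor a duration, and they name no further treatment. All libraries come from this single line. The labels do not say that equal-group libraries were separate cultures, so p-values here measure the spread between libraries, which may be technical.

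The libraries held 27272709 to 28804337 gene reads under hypoxia and 23196647 to 27012866 under normoxia. The hypoxia-inducible genes CA9, SLC2A1 and VEGFA were 13.7-fold, 5.63-fold and 3.49-fold higher under hypoxia. Of 10 melanocyte markers 7 passed the filter. SOX10, DCT, SLC45A2 and MITF lay between 21.9 and 79.6 TPM and PMEL, MLANA and S100B at or below 2.998 TPM, but TYR, the defining pigment enzyme, was at 0 in all 6 libraries, and TYRP1 and TRPM1 were below the filter. Summed TPM of the melanocyte markers was 168 to 182 under hypoxia and 153 to 169.8 under normoxia. Markers of other cell types were present as well: the 3 epithelial markers with a row (KRT14, EPCAM and CDH1) summed to 1143 to 1291 TPM under hypoxia and 446 to 465 TPM under normoxia. KRT14 carried most of that difference, at 854 to 1016 TPM under hypoxia and 190.2 to 196 TPM under normoxia. By log2 fold change CDH1 was higher under hypoxia (0.47) and EPCAM lower (-0.15). The 5 fibroblast markers, mostly COL1A2, summed to 2835 to 2928 TPM under hypoxia and 2172 to 2303 TPM under normoxia. Of the 5, only the collagen genes COL1A1 and COL1A2 were high. DCN lay at 1.36 to 3.27 TPM and PDGFRB at or below 0.78 TPM, and LUM was below the filter. The 4 leukocyte markers summed to at most 1.17 TPM and the 3 endothelial markers to at most 2.12 TPM in any library. The part of these marker shifts in the complex I values was not tested.

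Complex I takes electrons from NADH and passes them through a flavin and a chain of iron-sulfur clusters to ubiquinone, and it pumps protons as it does so. Its peripheral arm is built from the N module, which oxidises NADH, and the Q module, which reduces ubiquinone. The membrane arm carries the proton pumps, which are encoded on mitochondrial DNA and surrounded by nuclear-encoded accessory subunits. Assembly factors hold or modify intermediates and are absent from the finished enzyme. Oxygen is the final acceptor of the electrons that enter here, and cells with little oxygen are known to rely more on glycolysis.

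Transcripts of complex I genes were lower under hypoxia, by small amounts, and more so for assembly factors than for subunits by the median. All 8 assembly factors fell and 21 of 28 subunits fell, whereas 0 of 36 rose (quasi-likelihood test of edgeR, p-values adjusted over 15397 genes by Benjamini-Hochberg). Over all genes tested 24.4% were called lower and 24.5% higher, against 75% of the subunits and 100% of the assembly factors called lower. The median log2 fold change of hypoxia over normoxia was -0.33 for assembly factors (-20.7%), -0.18 for subunits (-11.7%) and 0.00 for all genes tested. The hypoxia libraries lay wholly below the normoxia libraries in 7 of 8 assembly factors and 21 of 28 subunits, as they did in 27.5% of all genes tested. These 21 subunits are not the same 21 that were called lower. NDUFB2 and NDUFV1 were called but overlapped, whereas NDUFA12 and NDUFS5 were separate but not called. By sign alone, every member except NDUFA6, NDUFB3 and NDUFB11 had a negative log2 fold change, against 49.9% of all genes tested. With library size as the only scaling, which moved the median of all genes to -0.07, 8 assembly factors and 24 subunits were called lower and 0 higher, against 31.6% of all genes lower and 20% higher. Members are not replicates of a condition, so the gap between the medians of the subunits and the assembly factors was not tested. In a bulk culture, a lower level in every cell and a low level in only some cells cannot be told apart.

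**Figure D1:**
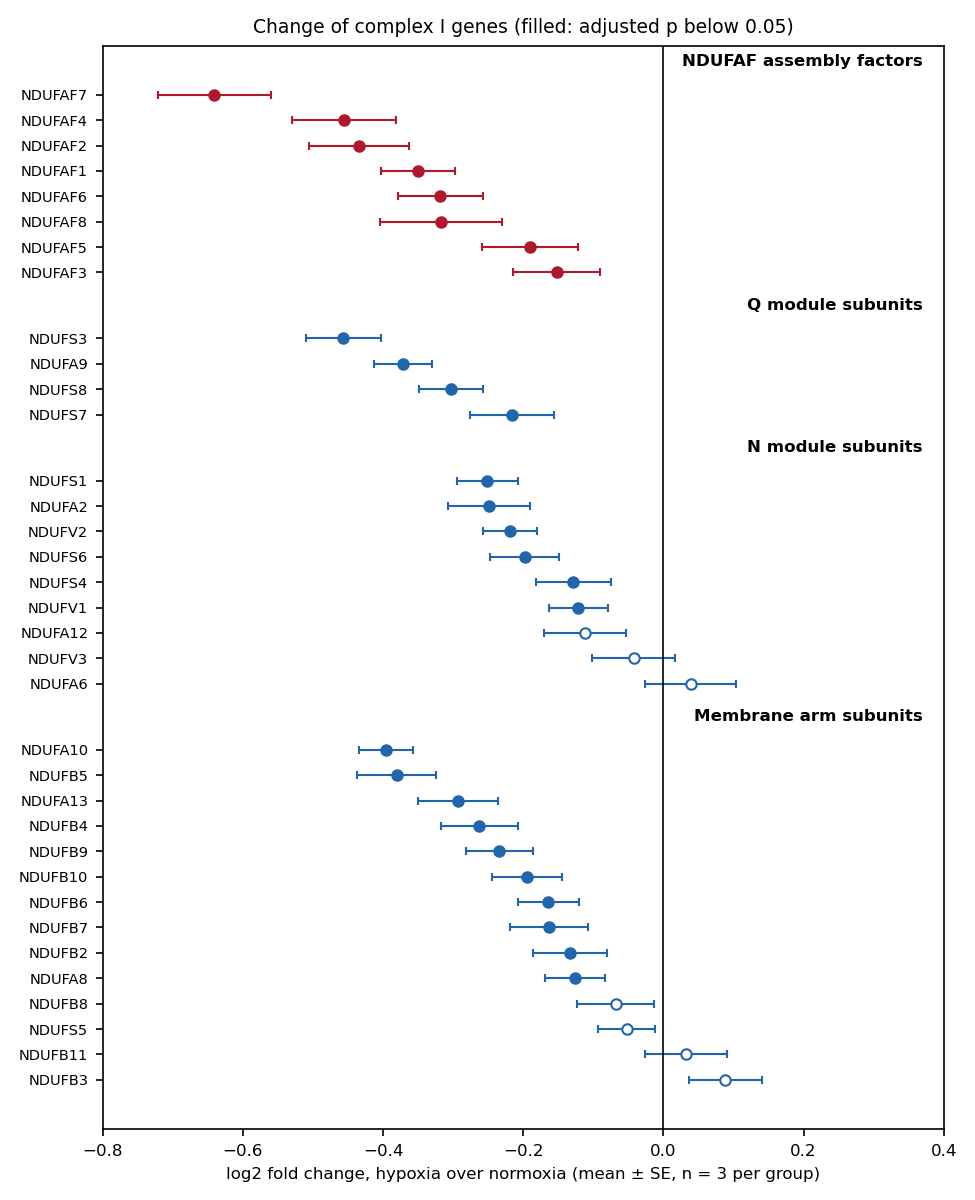
Log2 fold change of hypoxia over normoxia (x axis, ± SE, n = 3 libraries per group) for the complex I genes reported by name, grouped by role, with filled points for genes at an adjusted p below 0.05. All 8 assembly factors and the 4 Q module subunits drawn lie left of 0 and are filled, while the 7 open points are N module and membrane arm subunits.

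Summed over each library, the subunits and the factors can be set side by side per transcript length. The 28 subunits together had 4757, 4864 and 4635 TPM in hypoxia replicates 1, 2 and 3, against 5491, 5497 and 5319 TPM in normoxia replicates 1, 2 and 3. The 8 assembly factors had 343, 316 and 325 TPM in the hypoxia libraries, against 428, 447 and 440.2 TPM in the normoxia libraries. Both sums were lower in every hypoxia library than in any normoxia library. The sum of the factors equalled 7.22%, 6.49% and 7.003% of the subunit sum under hypoxia and 7.79%, 8.14% and 8.28% under normoxia. This ratio is formed within a library and does not depend on how libraries were scaled. From CPM of gene reads, introns included, it was 11.1% ± 0.30 under hypoxia and 12.2% ± 0.51 under normoxia (SD, n = 3 per group).

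The factors were also the less abundant transcripts. By mean TPM they ranged between 20.3 (NDUFAF7) and 71.3 (NDUFAF2) under hypoxia and between 32.8 (NDUFAF7) and 105 (NDUFAF2) under normoxia, with medians of 35.5 and 46.4. The subunits ranged between 57.0 (NDUFS6) and 434 (NDUFB6) under hypoxia and between 63.4 (NDUFS6) and 484 (NDUFB6) under normoxia, with medians of 157 and 181. NDUFB6, an accessory subunit of the membrane arm, is annotated on chromosome 22 (3526115 to 3526501) of CanFam3.1 as a single exon of 387 bases. It therefore held 0 exon-exon reads, and its TPM rests on this short model. Whether its reads arise from another copy of the gene was not tested. After NDUFB6 the highest levels were those of NDUFV2, at 281 ± 11.4 TPM under hypoxia and 329.95 ± 3.05 TPM under normoxia, and of NDUFB4, at 256 ± 17.8 TPM under hypoxia and 309 ± 12.02 TPM under normoxia (SD, n = 3 per group).

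**Figure D2:**
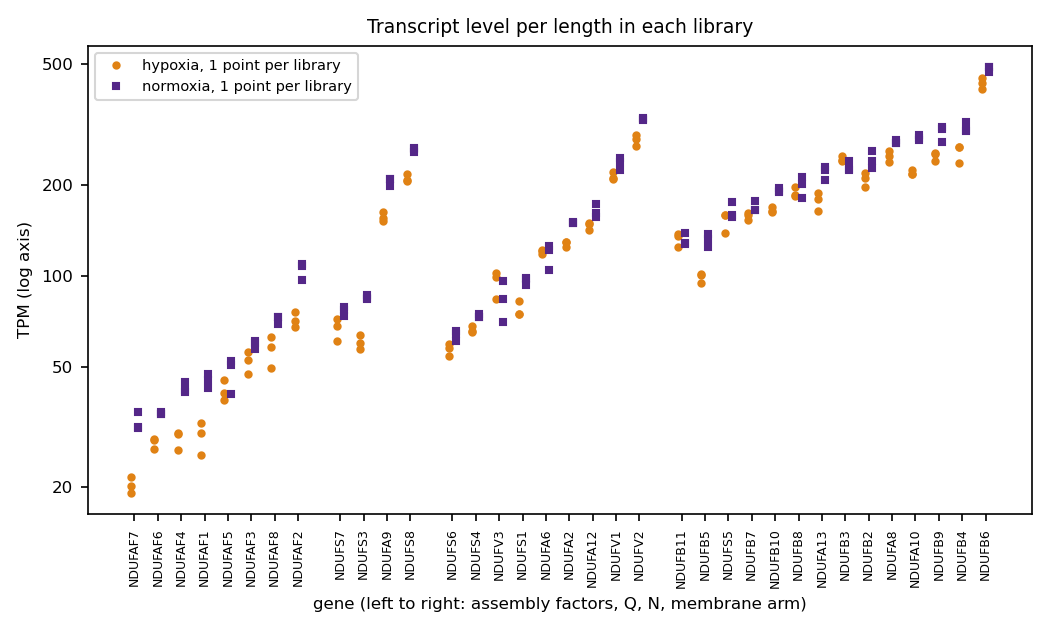
TPM of the complex I genes reported by name, on a log axis, with 1 point per library, hypoxia (circles) left of normoxia (squares), genes ordered by normoxia level within each role. The assembly factors lie mostly below 100 TPM and NDUFB6 stands highest, at 414 to 452 TPM under hypoxia and 471 to 491 TPM under normoxia.

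Among the assembly factors NDUFAF7, a methyltransferase that modifies a core subunit early in assembly, fell most. It had 14.6, 15.5 and 16.5 CPM in the hypoxia libraries, against 22.9, 23.9 and 25.8 CPM in the normoxia libraries. The groups were far apart, and the level fell by 35.9% (log2 fold change -0.64 ± 0.080, adjusted p = 5.19e-08, edgeR with Benjamini-Hochberg adjustment). Only 2.84% of all genes tested had a lower log2 fold change. The gene lies on chromosome 17 (29584845 to 29606016), wholly inside a longer unnamed model on the same strand. That model had 185 CPM under hypoxia and 199.7 CPM under normoxia and a log2 fold change of -0.04 (adjusted p = 0.340, edgeR with Benjamini-Hochberg adjustment). Reads unique to NDUFAF7 were 85.7% of its total and gave a log2 fold change of -0.67.

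NDUFAF3 and NDUFAF4 act together on the early Q module intermediate that contains NDUFS3. NDUFAF4 had 23.9, 23.3 and 19.6 CPM under hypoxia, against 29.9, 30.1 and 31.6 CPM under normoxia, and fell by 27.1% (-0.46 ± 0.074, adjusted p = 5.14e-06, edgeR with Benjamini-Hochberg adjustment). Its hypoxia values were all below its normoxia values, with hypoxia replicate 3 lowest. NDUFAF3 had 37.8, 34.8 and 37.5 CPM under hypoxia, against 43.1, 38.01 and 41.3 CPM under normoxia, a narrow separation. It fell by 10.002% (-0.15 ± 0.062, adjusted p = 0.0428, edgeR with Benjamini-Hochberg adjustment). That call was lost from exon reads only (-0.16, adjusted p = 0.120, edgeR with Benjamini-Hochberg adjustment), from exon-exon reads (adjusted p = 0.0501) and in DESeq2 (adjusted p = 0.0882). It was also lost without hypoxia replicate 2 (adjusted p = 0.189, edgeR), normoxia replicate 1 (0.216) or normoxia replicate 3 (0.0871). The NDUFAF3 model overlaps those of WDR6, P4HTM and DALRD3, and 51.4% of its reads lie in introns. Unique reads were 81.3% of its total and gave -0.17.

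NDUFAF2, a paralogue of the subunit NDUFA12 that holds its place during assembly of the N module, had 28.4, 24.04 and 24.8 CPM under hypoxia, against 37.3, 34.5 and 32.7 CPM under normoxia. It fell by 26.0% (-0.43 ± 0.072, adjusted p = 5.80e-06, edgeR with Benjamini-Hochberg adjustment), and its groups did not overlap. NDUFA12 itself did not pass the test (-0.11 ± 0.059, adjusted p = 0.115, edgeR with Benjamini-Hochberg adjustment), at 40.7, 40.3 and 40.9 CPM under hypoxia, against 43.9, 46.4 and 41.3 CPM under normoxia. It passed without normoxia replicate 3 (adjusted p = 0.0421, edgeR with Benjamini-Hochberg adjustment). The difference in response between the 2 paralogues was not tested.

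NDUFAF1, part of the complex that assembles the membrane arm around the mitochondrially encoded ND2, had 51.3, 47.7 and 48.8 CPM under hypoxia, against 61.1, 61.7 and 65.7 CPM under normoxia. The hypoxia values were all lower, a fall of 21.5% (-0.35 ± 0.053, adjusted p = 1.43e-06, edgeR with Benjamini-Hochberg adjustment). Introns held 64.0% of its reads, and the model overlaps that of the mitotic gene NUSAP1 on the opposite strand, which also fell (-0.20). From exon reads only the change of NDUFAF1 was larger, at -0.58 ± 0.086 (adjusted p = 5.63e-07, edgeR with Benjamini-Hochberg adjustment).

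NDUFAF6, needed for the synthesis of ND1, had 30.7, 30.6 and 31.2 CPM under hypoxia, against 38.3, 39.4 and 37.6 CPM under normoxia, and fell by 19.8% (-0.32 ± 0.061). NDUFAF8, a partner of NDUFAF5, had 17.6, 16.3 and 14.1 CPM under hypoxia, against 18.98, 20.8 and 20.1 CPM under normoxia, and also fell by 19.8% (-0.32 ± 0.087). In both genes every hypoxia value lay below every normoxia value. From exon-exon reads the NDUFAF8 call was lost (-0.20, adjusted p = 0.114, edgeR). The NDUFAF8 model lies wholly inside that of SLC38A10 on the opposite strand, which had a log2 fold change of -0.04. NDUFAF5, which hydroxylates an arginine of NDUFS7, had 30.03, 31.3 and 32.8 CPM under hypoxia, against 32.1, 38.9 and 36.3 CPM under normoxia. It was the only factor whose groups overlapped, through normoxia replicate 1, and it fell by 12.4% (-0.19 ± 0.069, adjusted p = 0.0212, edgeR with Benjamini-Hochberg adjustment). Its call was lost from exon reads (adjusted p = 0.127, edgeR with Benjamini-Hochberg adjustment), from exon-exon reads (0.123) and in DESeq2 (0.0527). Leaving out hypoxia replicate 1 (0.0941) or 2 (0.0574), or normoxia replicate 2 (0.178) or 3 (0.0515), also ended it.

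**Figure D3:**
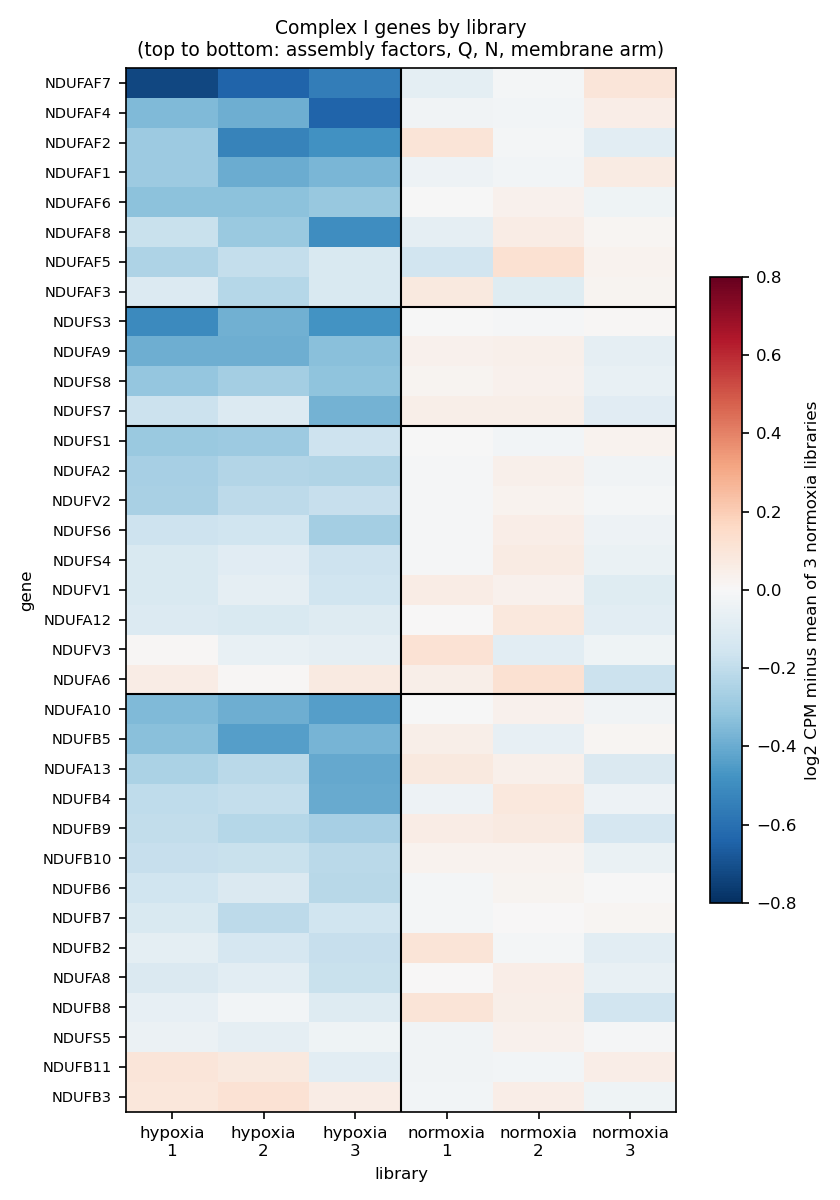
Log2 CPM of the complex I genes reported by name in each library, less the mean of its 3 normoxia libraries (colour), with the hypoxia libraries left of the normoxia libraries and genes grouped by role. The hypoxia columns are blue, some palely, for the 8 assembly factors and the 4 Q module subunits drawn, and pale or red for NDUFB3, NDUFB11 and NDUFA6.

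Of the 7 nuclear core subunits, which carry the flavin and the iron-sulfur clusters or line the quinone site, all 7 fell, with a median of -0.22. All 5 measured Q module subunits fell (median -0.30), as did 6 of 9 in the N module (-0.13) and 10 of 14 in the membrane arm (-0.16). Over all genes tested 24.4% were called lower, and the medians of the modules were not compared by a test.

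NDUFS3, a Q module core subunit that is among the first to enter assembly, fell most of all subunits. It had 43.3, 47.2 and 44.2 CPM under hypoxia, against 61.5, 61.2 and 62.1 CPM under normoxia, and fell by 27.1% (-0.46 ± 0.053, adjusted p = 1.16e-08, edgeR with Benjamini-Hochberg adjustment). It lies on chromosome 18 (42069398 to 42076921), with 1031 bases shared with KBTBD4 on the opposite strand, and exon reads gave the same change, -0.46. NDUFS8, which carries a pair of iron-sulfur clusters, had 70.2, 72.1 and 69.5 CPM under hypoxia, against 88.5, 89.04 and 83.7 CPM under normoxia. It fell by 18.9% (-0.30 ± 0.046). NDUFS7, which holds the last cluster before ubiquinone, had 58.1, 60.4 and 50.3 CPM under hypoxia, against 67.4, 67.5 and 61.3 CPM under normoxia. It fell by 13.9% (-0.22 ± 0.060), with replicate 3 lowest in both conditions. Of the 36 complex I genes, 20 were lowest in replicate 3 among the hypoxia libraries and 21 among the normoxia libraries. The same count was not made over all genes tested, so it may be a trait of those libraries. NDUFA9, an accessory subunit where the Q module meets the membrane arm, had 106, 106 and 109.8 CPM under hypoxia, against 142, 142 and 132 CPM under normoxia, and fell by 22.7% (-0.37 ± 0.041). In these 4 genes the hypoxia libraries lay below the normoxia libraries. NDUFS7 lies inside the models of SBNO2, which rose (0.15), and REEP6, and NDUFS8 lies inside that of KMT5B (-0.03). From exon reads NDUFS7 changed by -0.16 and NDUFS8 by -0.28.

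In the N module NDUFS1, which carries more iron-sulfur clusters than any other subunit, had 93.8, 94.1 and 103 CPM under hypoxia, against 115, 113 and 117 CPM under normoxia. It fell by 16.0% (-0.25 ± 0.043, adjusted p = 1.22e-05, edgeR with Benjamini-Hochberg adjustment). NDUFV2, which carries a cluster beside the flavin, had 122, 125 and 128 CPM under hypoxia, against 144, 148 and 144 CPM under normoxia, and fell by 14.1% (-0.22 ± 0.039). NDUFV1, which binds NADH and the flavin, had the smallest fall of the core, 8.07% (-0.12 ± 0.042, adjusted p = 0.0163, edgeR with Benjamini-Hochberg adjustment). Its values were 142, 146 and 138 CPM under hypoxia and 161, 158 and 144 CPM under normoxia, with normoxia replicate 3 inside the hypoxia range. The NDUFV1 call was lost without hypoxia replicate 3 (adjusted p = 0.0613, edgeR with Benjamini-Hochberg adjustment), normoxia replicate 1 (0.133) or normoxia replicate 2 (0.0762). The accessory subunits NDUFA2 (-0.25), NDUFS6 (-0.20) and NDUFS4 (-0.13, adjusted p = 0.0462, edgeR with Benjamini-Hochberg adjustment) also fell. NDUFS4 passed the test without normoxia replicate 3 only, among the 6 fits that leave out 1 library, with adjusted p of 0.0537 to 0.198 in the other five (edgeR). It was also lost from exon reads (0.0864) and in DESeq2 (0.0811).

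In the membrane arm NDUFA10 fell most. This accessory subunit had 145, 141 and 137 CPM under hypoxia, against 185, 190.1 and 182 CPM under normoxia, and fell by 24.0% (-0.40 ± 0.038, adjusted p = 1.84e-10, edgeR with Benjamini-Hochberg adjustment). That was the smallest adjusted p of the 36 genes. NDUFB5 had 42.01, 39.1 and 40.9 CPM under hypoxia, against 54.7, 50.7 and 53.4 CPM under normoxia, and fell by 23.2% (-0.38 ± 0.056). NDUFA13, also known as GRIM-19, had 55.2, 56.6 and 49.5 CPM under hypoxia, against 69.2, 67.5 and 60.7 CPM under normoxia, and fell by 18.4% (-0.29 ± 0.057). Only 79.9% of its reads mapped uniquely, and unique reads gave -0.27. The NDUFA13 model shares 866 bases with that of CILP2 on the same strand, which rose (0.19). NDUFB4 had 68.0, 68.7 and 59.3 CPM under hypoxia, against 75.98, 82.97 and 76.1 CPM under normoxia, and fell by 16.6% (-0.26 ± 0.054). In NDUFA10, NDUFB5, NDUFA13 and NDUFB4, too, the groups were separate. NDUFB9, NDUFB10, NDUFB6, NDUFB7, NDUFB2 and NDUFA8 fell less, with log2 fold changes of -0.23 to -0.13. NDUFB2 lost its call without hypoxia replicate 2 (adjusted p = 0.0812, edgeR) or 3 (0.117), or normoxia replicate 1 (0.286) or 2 (0.0507), and in DESeq2 (0.0700). NDUFA8 lost it without hypoxia replicate 3 (0.064) or normoxia replicate 2 (0.0915). NDUFB7 lost it without hypoxia replicate 2 (0.0724) and from exon reads (0.373).

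The 7 subunits that did not pass the test were NDUFA12, NDUFV3 and NDUFA6 of the N module and NDUFB8, NDUFS5, NDUFB11 and NDUFB3 of the membrane arm. Their log2 fold changes lay between -0.11 and 0.09, each with an SE of at most 0.065. NDUFB3 had 54.6, 55.8 and 53.6 CPM under hypoxia, against 50.6, 53.3 and 50.3 CPM under normoxia. It was the only member whose hypoxia libraries all lay above its normoxia libraries, as they did in 27.8% of all genes tested. Its change was 0.09 ± 0.053 (adjusted p = 0.170, edgeR with Benjamini-Hochberg adjustment). From exon-exon reads, where 22.6% of genes were called higher, it was 0.19 ± 0.065 (adjusted p = 0.0105, edgeR with Benjamini-Hochberg adjustment). NDUFB11, on the X chromosome, had 49.3, 48.6 and 43.6 CPM under hypoxia, against 45.2, 45.5 and 47.8 CPM under normoxia (0.03 ± 0.058). NDUFA6 had 40.2, 38.98 and 40.6 CPM under hypoxia, against 39.95, 42.1 and 34.4 CPM under normoxia (0.04 ± 0.065). In both genes the groups overlapped. NDUFB8 (-0.07 ± 0.055) passed without normoxia replicate 3 (-0.14, adjusted p = 0.0274, edgeR with Benjamini-Hochberg adjustment).

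Reads in introns and exons did not move alike in every member. The kit does not mark the strand, and 5 of 8 assembly factors and 10 of 28 subunits have a model that overlaps another gene, so intron reads may belong to that gene. Among the 21 members with no overlapping model, all 3 assembly factors (NDUFAF4, NDUFAF5 and NDUFAF6) and 12 of 18 subunits fell, with medians of -0.32 and -0.16. From these total gene reads, 24.4% of all genes tested were called lower. NDUFB6, whose model has no intron although 16.1% of its reads are deposited as intron reads, was left out of the intron values. Introns held 34.0% of reads in the median assembly factor and 10.9% in the median of 27 subunits. From exon reads only, 6 of 8 assembly factors and 18 of 28 subunits fell, against 23.8% of all genes tested, and the medians were -0.41 and -0.16. From intron reads, 2 of 8 assembly factors and 11 of 27 subunits fell, against 15.7% of all genes tested, and the medians were -0.23 and -0.27. No member rose from intron reads, against 18.7% of all genes tested. Thus the factors had the lower median in exon reads, while the medians from intron reads lay close together and were not compared by a test. The subunit median from intron reads is the value of NDUFB11 (-0.27 ± 0.33), which had only 14 to 44 intron reads per library.

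NDUFAF1, NDUFAF2 and NDUFAF4 were the factors whose exon reads had a change furthest below that of their introns. In NDUFAF2 exon reads changed by -0.52 ± 0.080 and intron reads by -0.21 ± 0.13. In NDUFAF4 the values were -0.52 ± 0.081 for exon reads and -0.25 ± 0.13 for intron reads. The exon change lay below the intron change in 5 of 8 assembly factors and 9 of 27 subunits, and above it in 3 assembly factors and 18 subunits. The subunits with the widest gap above were NDUFS7, NDUFS6 and NDUFB7, whose exon reads changed by -0.16 ± 0.057, -0.12 ± 0.052 and -0.07 ± 0.059. Their intron reads, 70 to 329 per library, changed by -0.80 ± 0.16, -0.71 ± 0.13 and -0.60 ± 0.13. From exon reads NDUFS6 did not pass (adjusted p = 0.0601, edgeR with Benjamini-Hochberg adjustment).

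NDUFV3, an accessory subunit of the N module, differed in sign. Its exon reads numbered 546, 515 and 412 under hypoxia, against 473, 362 and 358 under normoxia, and gave a log2 fold change of 0.22 ± 0.10 (adjusted p = 0.0679, edgeR with Benjamini-Hochberg adjustment). Exon-exon reads gave 0.28 ± 0.11 (adjusted p = 0.0294, edgeR with Benjamini-Hochberg adjustment). Its intron reads, 62.6% of the gene's reads, numbered 732, 692 and 723 under hypoxia, against 821, 809 and 691 under normoxia (-0.18 ± 0.073). The deposited model has 3 exons with 436 bases, and no other gene model overlaps it. The differences between exon and intron changes were not tested.

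**Figure D4:**
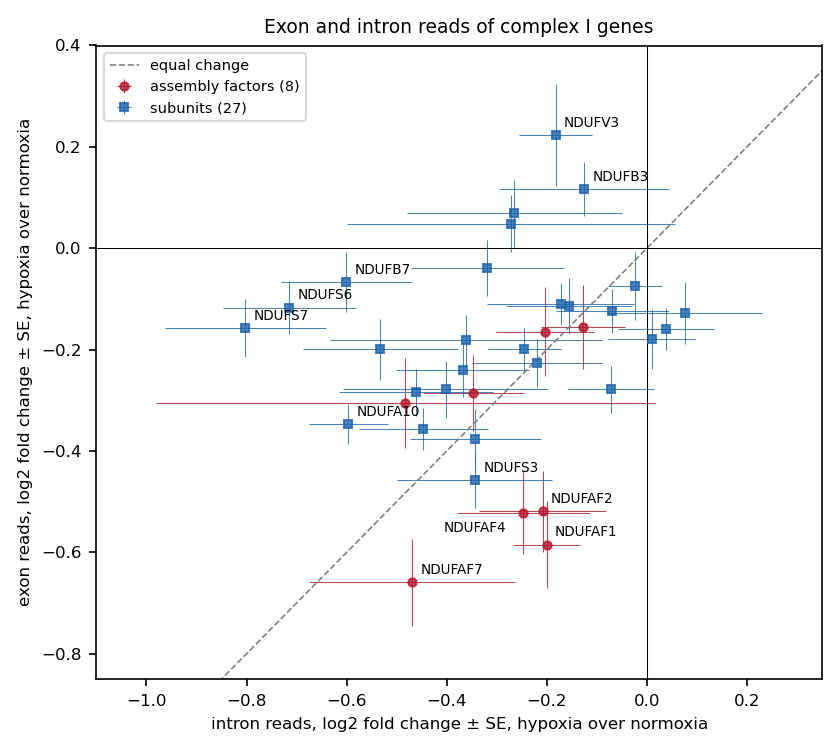
Log2 fold change of exon reads (y axis) against that of intron reads (x axis), hypoxia over normoxia with SE bars, for 8 assembly factors and the 27 subunits whose model holds an intron, with a dashed line of equal change. NDUFAF1, NDUFAF2 and NDUFAF4 lie below the line, and NDUFV3, NDUFS7, NDUFS6 and NDUFB7 above it.

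Genes that work with these members were taken from lists, and all counts here stand beside 24.4% of genes called lower and 24.5% higher. Of 12 measured assembly factors without an NDUFAF symbol 9 fell and 0 rose, with a median of -0.41. FOXRED1, a flavoprotein needed for complex I assembly, fell most (log2 fold change -0.75 ± 0.11, SE). It had 8.66 ± 1.42 CPM under hypoxia and 14.6 ± 0.49 CPM under normoxia (SD, n = 3 per group). Of the partners of NDUFAF1 in its assembly complex, ECSIT fell by 0.47, TMEM126B by 0.45 and ACAD9 by 0.27 on the log2 scale, whereas COA1, also found in that complex, did not pass (0.11). From exon reads COA1 was called higher (0.15), as were 24.4% of all genes tested. NUBPL (-0.03) and DMAC1 (-0.09) did not pass either. Of the 5 mitochondrially encoded subunits with a row 4 fell, with a median of -0.34. The falls were uneven, at -1.24 for MT-ND1 but -0.34 for MT-ND4 and -0.29 for MT-ND3. The lowest was MT-ND2, at 1290.5 ± 45.1 CPM under hypoxia and 3071 ± 33.7 CPM under normoxia (-1.25 ± 0.033). MT-ND6 did not pass (0.00 ± 0.033). It is read from the other strand of mitochondrial DNA, and without strand its reads cannot be told apart from those of transcripts opposite to it.

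In the list of iron-sulfur cluster assembly 3 of 9 measured genes fell, 0 rose and 6 did not pass, with a median of -0.15. Over all genes tested 24.4% were called lower. From exon reads and in DESeq2, 2 of 9 fell, against 23.8% and 20.8% of all genes. The genes called lower from total gene reads included the chaperone HSPA9 (-0.54 ± 0.033) and the scaffold ISCU (-0.33 ± 0.049). Of 12 measured regulators of respiratory gene expression 7 fell and 1 rose, with a median of -0.29. The PGC-1-related coactivator PPRC1 fell most, at 37.6 ± 0.79 CPM under hypoxia and 66.2 ± 1.62 CPM under normoxia (-0.82 ± 0.053). TFAM, which packages mitochondrial DNA and starts its transcription, rose to 44.3 ± 0.72 CPM under hypoxia, against 33.8 ± 1.46 CPM under normoxia (0.39 ± 0.059). NRF1, a factor known to bind promoters of respiratory chain genes, fell (-0.22 ± 0.054), while GABPA (-0.03) and YY1 (-0.02) did not pass. PPARGC1A was below the filter. NDUFA4L2, a paralogue of NDUFA4 and known HIF target outside the rule, had 6.08 ± 0.65 CPM under hypoxia and 0.35 ± 0.015 CPM under normoxia (4.11 ± 0.25), and NDUFA4 had no row by that name.

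**Figure D5:**
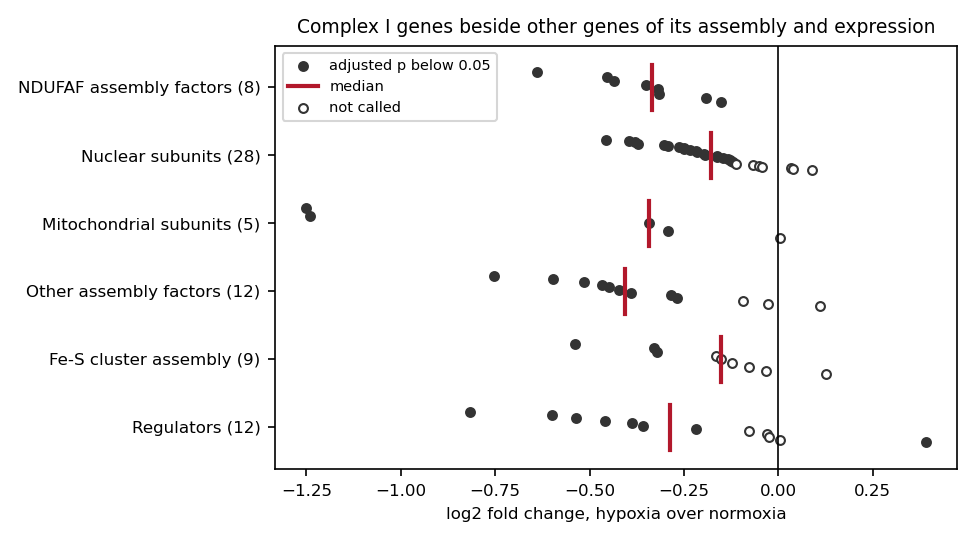
Log2 fold change of hypoxia over normoxia for each measured gene of the complex I groups and of 4 related lists, with filled points at an adjusted p below 0.05 and a bar at each list's median. The medians run from -0.41 for the other assembly factors to -0.15 for iron-sulfur cluster assembly, and TFAM is the 1 filled point right of 0.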

How the data were processed

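RNA was sequenced from CMM10 cells in 3 hypoxia and 3 normoxia libraries. Polyadenylated RNA was prepared with a kit that does not mark the strand, per the labels' protocols. CanFam3.1 is the build, per the submitters' processing notes. No aligner or counter is named in the labels. For each gene the authors deposited counts of total, unique, exon, exon-exon and intron reads. They also deposited TPM, which is scaled per exon length and to an equal sum in each library. Whether a read or a pair counts as 1 is not stated.

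Total gene reads of 15397 genes kept by filterByExpr were scaled by TMM and tested with edgeR's quasi-likelihood test without covariates, calling genes at an adjusted p (Benjamini-Hochberg) below 0.05. The SE of a log2 fold change was derived from that test, as the absolute change divided by the square root of its F statistic. Library sizes for CPM were scaled by TMM. Variation common to all genes (BCV) was 4.76%. The fit was tested on simulated data. Software was R 4.3.3, edgeR 4.0.16, DESeq2 1.42.0 and matplotlib 3.10.9. Pairs of replicates within a group differed by more than sampling noise (chi-square per degree of freedom 4.29 to 13.7). The members and lists were chosen with earlier results of these data known. Values per library are given for the core subunits but one, the NDUFAF genes and the 5 other subunits with the largest falls. NDUFA12, NDUFB3, NDUFB11, NDUFA6 and NDUFV3 were added after their values were seen. Alternatives were 2 other scalings, DESeq2, no filter, exon, unique and exon-exon reads, a replicate block and leaving out each library. No sequences were used. Some genes enter the counts and medians but are not reported here by name.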

Additional observations from a re-analysis of the deposited data

How the results depend on the processing

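Of the 29 calls, 20 (15 of 21 subunits, 5 of 8 assembly factors) held under all 15 alternatives, or the 14 that gave a value for NDUFB6. Scaling by library size alone gave medians of -0.25 for subunits and -0.40 for assembly factors, beside -0.07 for all genes, and NDUFA6 (-0.0273) and NDUFB11 (-0.0341) changed sign without passing the test. The assembly factor median was -0.41 from exon and from unique exon reads. From exon-exon reads it was -0.39, with 5 assembly factors and 16 subunits lower and 2 subunits (NDUFB3 and NDUFV3) higher. Fewer genes were tested there, 11288 in the whole table, of which 2459 (21.8%) were lower and 22.6% higher. NDUFV3 changed sign from exon and unique exon reads (0.22 each) and exon-exon reads (0.28); the cause was not tested. Leaving out 1 library at a time gave medians of -0.39 (without hypoxia replicate 1) to -0.33 for assembly factors, with 6 to 8 of them and 17 to 23 subunits lower. In those fits NDUFA6 ranged from -0.0429 to 0.10, NDUFB11 from -0.0015 to 0.0845 and NDUFV3 from -0.0866 to 0.0189. The replicate block changed no call of a member; same-numbered libraries did not deviate together (r of -0.085, 0.026 and -0.049), and the labels do not say that numbers pair libraries. DESeq2 called 6 assembly factors and 19 subunits lower, against 20.8% of all genes it tested. Intron reads of NDUFS7, NDUFS6 and NDUFB7 numbered at most 329 per library, which limits those values.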
